A study of Mus musculus with 20 samples.

Results

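The genes described here are Myc, its partner Max and the factors that make and process ribosomal RNA in the nucleolus, followed through embryonic mouse hearts with and without a duplication of part of chromosome 16. They were taken by name, as the rows of the table for Myc, Max, RNA polymerase I and the nucleolar processing factors. Earlier results of these data were known when they were chosen. They number 43 of the 48795 genes in the table, and all 43 were among the 15304 genes with a mean normalised count of at least 10, which were tested. By role there were 2 genes for Myc and Max, 6 for RNA polymerase I and its factors, 3 for box C/D and 3 for box H/ACA small nucleolar ribonucleoproteins (snoRNPs), 5 nucleolar regulators, 3 for the PeBoW complex, 10 for the small-subunit processome, 4 late 40S factors and 7 for assembly of the 60S subunit. The members lie on 19 chromosomes, and 0 of them lie in the duplicated stretch from Lipi to Zbtb21 (chromosome 16, 75540514 to 97962627, GRCm38.p6). The only member on chromosome 16 is Rrn3 (13780699 to 13814841), which lies outside that stretch.

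Bulk RNAseq was carried out on 20 whole hearts of mouse embryos at E13.5, each heart a separate library. There were 10 WT hearts, 5 Dp1Tyb hearts, which carry the Lipi to Zbtb21 duplication and so an extra copy of its genes, Dyrk1a included, and 5 hearts labelled Dp1TybDyrk1a+/+/-, which carry the same duplication with 1 allele of Dyrk1a made null. Both mutant genotypes were bred as separate crosses with WT littermates of their own, but no label ties a WT heart to a litter, and therefore each comparison with WT used all 10. The comparisons address whether this gene program changes with the duplication and whether it then depends on the number of Dyrk1a copies.

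Myc is a transcription factor that, as a dimer with Max, binds the E-box sequence CACGTG and raises the transcription of genes for growth, among them many genes for ribosome production. RNA polymerase I makes a long precursor of ribosomal RNA in the nucleolus, which snoRNPs modify, and which large assemblies of processing factors then cut and fold into the small 40S and the large 60S subunit. The output of this pathway is tied to cell growth and division, and the embryonic heart at this stage is built of cardiomyocytes that still divide.

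Values are log2 normalised counts, and a difference between groups is given as a log2 fold change. All 9 cardiomyocyte markers were detected in every heart. Dyrk1a had a mean of 11.37 in WT, 11.69 in Dp1Tyb and 11.76 in Dp1TybDyrk1a+/+/- hearts. An extra copy of this gene thus read as a 1.25-fold level on this scale in Dp1Tyb hearts. That is a log2 fold change of 0.32 with a 95% interval of 0.27 to 0.38. This value takes in the whole gene and does not separate transcripts of the null allele, so it checks nothing about that allele. A pair of hearts stood apart over all tested genes. The median deviation of a gene from the median heart was 0.103 in Dp1TybDyrk1a+/+/- heart 15 and 0.0611 in WT heart 10, against 0.0258 to 0.0408 in the other 18 hearts, and the 15 mitochondrially encoded genes lay 0.902 and 0.498 above the median heart in them. Differences that moved most with these hearts are also given without them, an alternative chosen after seeing the data. Sequencing lanes 3, 6 and 7 held 4, 4 and 2 WT hearts, 2, 2 and 1 Dp1Tyb hearts, and 1, 1 and 3 Dp1TybDyrk1a+/+/- hearts.

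None of the 43 genes passed the test in any of the comparisons (limma, Benjamini-Hochberg adjusted p under 0.05 over all 15304 genes). Over all tested genes 3.08% were called between Dp1Tyb and WT hearts, 0.712% between Dp1TybDyrk1a+/+/- and WT hearts and 1.16% between Dp1Tyb and Dp1TybDyrk1a+/+/- hearts. Those counts are low, so a count of 0 among 43 is near the background. At an unadjusted p under 0.05 there were 5 members in Dp1Tyb versus WT hearts (11.6%, against 15.6% of all genes), all lower in Dp1Tyb, where 7.8% of all genes were lower at that p: Polr1e, Fbl, Dkc1, Ncl and Noc3l. There were also 5 in Dp1TybDyrk1a+/+/- versus WT hearts (11.6%, against 9.64%), with Ncl higher and Polr1b, Ubtf, Heatr1 and Nob1 lower (4 of 43, against 4.61% lower). The direct comparison of Dp1Tyb with Dp1TybDyrk1a+/+/- hearts gave 7 (16.3%, against 18.5%), with Bop1 higher and Nop58, Dkc1, Ncl, Npm1, Bms1 and Nop14 lower in Dp1Tyb (6 of 43, against 10% lower). These counts changed as each heart was left out in turn. In Dp1Tyb versus WT they ran from 0, without Dp1Tyb heart 12, to 7, and in Dp1TybDyrk1a+/+/- versus WT from 3 to 8. In the direct comparison they ran from 3, without Dp1TybDyrk1a+/+/- heart 15, to 8. The share of all genes at that p was not computed for these fits. At an adjusted p under 0.05, calls over all genes in Dp1Tyb versus WT fell from 471 to 303 without heart 12 and to 266 without Dp1Tyb heart 4. In the direct comparison they were 178 with all hearts and 200 without heart 15.

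Differences were small. The median log2 fold change of the members was -0.019 in Dp1Tyb versus WT, -0.020 in Dp1TybDyrk1a+/+/- versus WT and 0.0050 in Dp1Tyb versus Dp1TybDyrk1a+/+/- hearts, where the median of all tested genes was -0.0019, -0.0030 and 0.0028. Log2 fold changes were below 0 in 30, 29 and 21 of the 43 members respectively, against 51.5%, 52.6% and 48% of all tested genes. Without hearts 10 and 15 the medians of the members were -0.020, -0.0034 and -0.012, and 29, 23 and 26 of 43 were below 0. Without Dp1Tyb heart 12 the median in Dp1Tyb versus WT was -0.0078. The median size of the change regardless of direction was 0.022, 0.028 and 0.041 in the members and 0.031, 0.028 and 0.042 in all tested genes. On the deposited scale the 95% interval lay within a 1.1-fold change either way for 36 members in Dp1Tyb versus WT, for 34 in Dp1TybDyrk1a+/+/- versus WT and for 25 in Dp1Tyb versus Dp1TybDyrk1a+/+/- hearts. It lay within 1.2-fold for all 43 in both comparisons with WT and for 42 in the direct comparison of the mutant genotypes, Polr1c being the exception. On this scale an extra copy of Dyrk1a read as 0.32 in Dp1Tyb versus WT hearts. If the scale understates changes, true changes could exceed these limits.

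**Figure D1:**
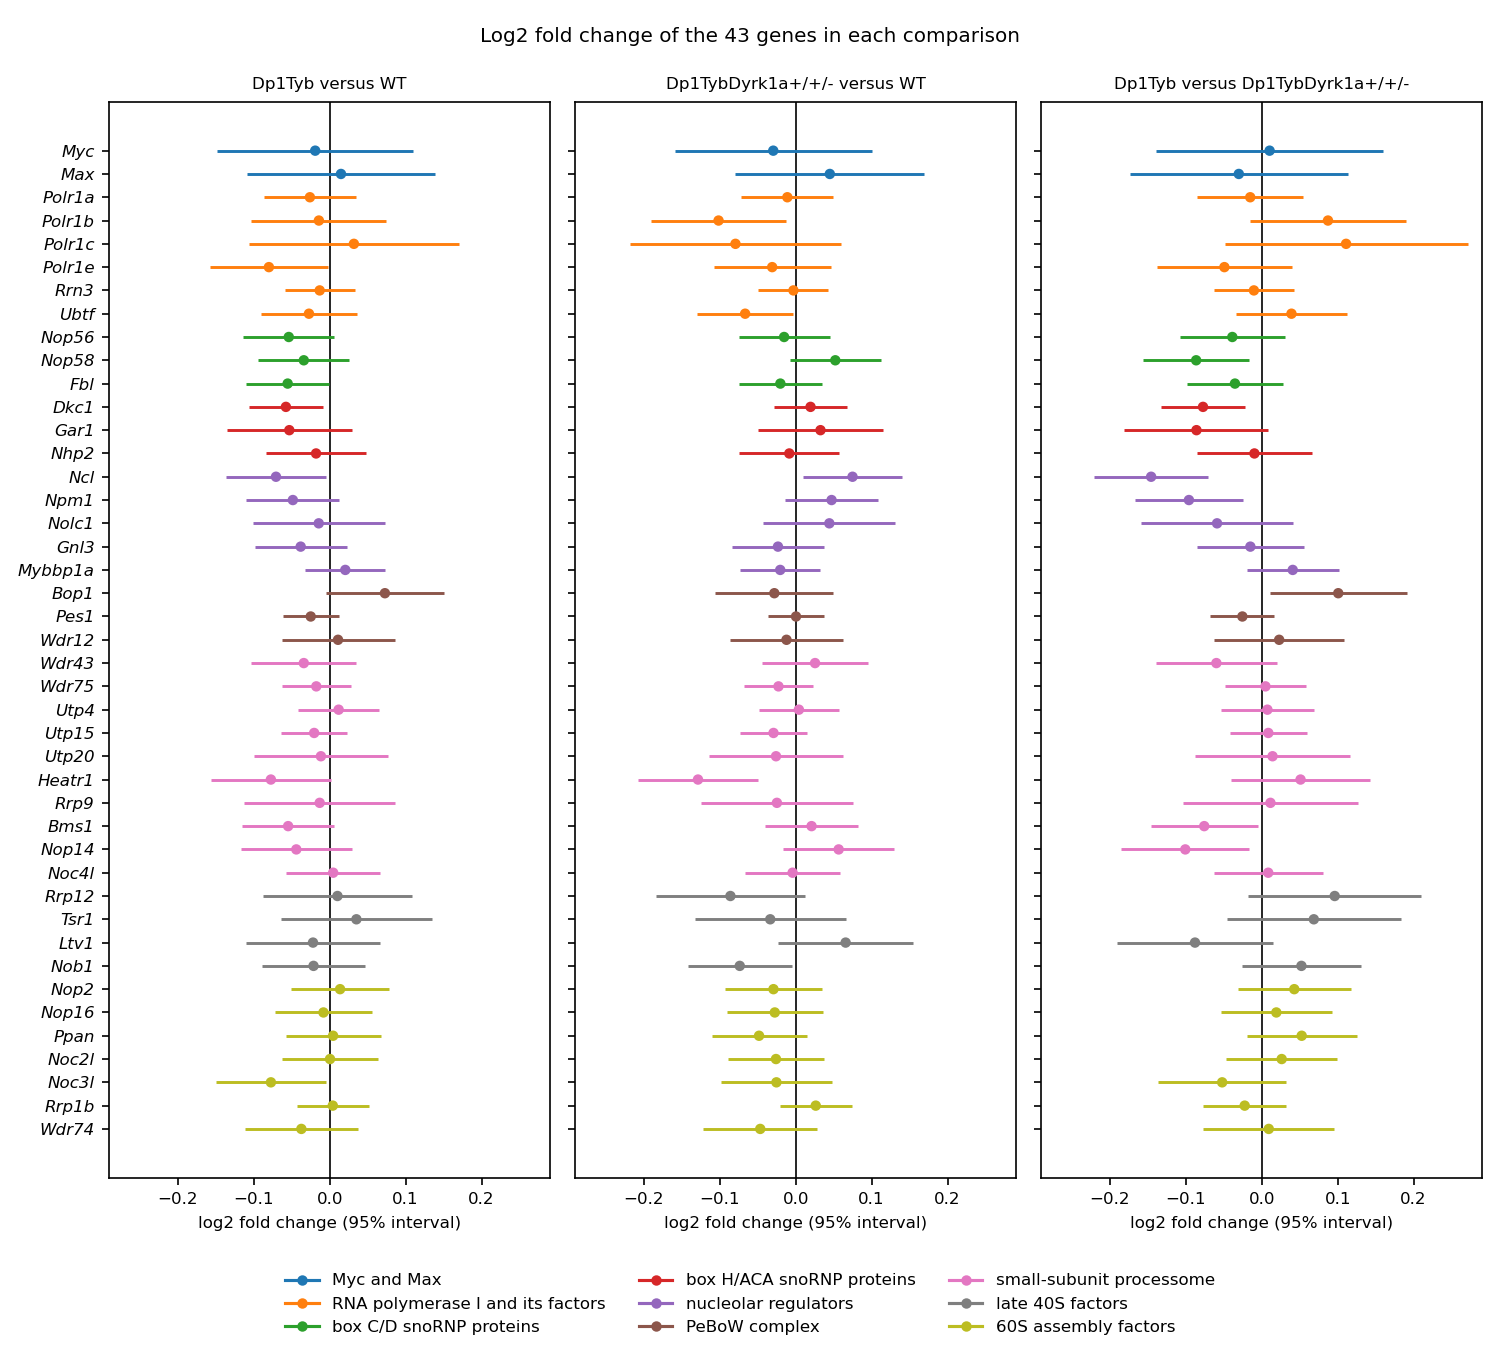
Log2 fold change of each of the 43 genes (points) with its 95% interval (lines) coloured by role. The panels show Dp1Tyb versus WT (left), Dp1TybDyrk1a+/+/- versus WT (middle) and the direct comparison of the mutant genotypes (right). Every point in the left panel lies within 0.1 of 0, and the point farthest from 0 in the right panel is Ncl at -0.15.

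Myc itself (ENSMUSG00000022346, chromosome 15, 61985341 to 61990361) did not pass the test in any comparison. In WT hearts the log2 normalised count of Myc ran from 8.78 to 9.08 with a median of 8.89, the highest being heart 10. In Dp1Tyb hearts it was 8.88, 8.84, 8.96, 8.92 and 8.83, all within the WT range. In Dp1TybDyrk1a+/+/- hearts 9, 14, 15, 17 and 18 it was 8.75, 8.89, 9.20, 8.77 and 8.77, so that heart 15 was above every WT heart and 3 of the other 4 were below the lowest of them. The log2 fold change was -0.019 in Dp1Tyb versus WT, with a 95% interval of -0.15 to 0.11 (adjusted p = 0.923, limma, and p = 0.731 in an exact two-sided permutation test over the hearts). It was -0.029 in Dp1TybDyrk1a+/+/- versus WT (adjusted p = 0.894, exact permutation p = 0.730) and 0.010 in Dp1Tyb versus Dp1TybDyrk1a+/+/- hearts (adjusted p = 0.952, exact permutation p = 0.960). Without hearts 10 and 15 these became 0.00044, -0.091 and 0.091, and the last, at 4 Dp1TybDyrk1a+/+/- hearts, had an exact permutation p of 0.0635 and an adjusted p of 0.280. Within lanes 3, 6 and 7 the difference of Dp1Tyb from Dp1TybDyrk1a+/+/- hearts was 0.011, 0.15 and -0.081. Lane 7 holds heart 15. There Dp1Tyb heart 12, at 8.83, was below heart 15, at 9.20, and above hearts 17 and 18, at 8.77 each.

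Max, the obligate dimer partner of Myc, followed a like pattern over the hearts. Its log2 normalised count in WT hearts ran from 9.43 to 9.77 with a median of 9.50. It was 9.58, 9.49, 9.58, 9.57 and 9.47 in Dp1Tyb hearts and 9.50, 9.47, 9.89, 9.54 and 9.43 in Dp1TybDyrk1a+/+/- hearts. Hearts 10 and 15 were again the highest of their groups, and without them the highest WT value was 9.58. The log2 fold changes of Max were 0.015, 0.045 and -0.030 in the order used above, with adjusted p of 0.939, 0.823 and 0.840 (limma), and without the 2 hearts they were 0.042, -0.0093 and 0.051.

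**Figure D2:**
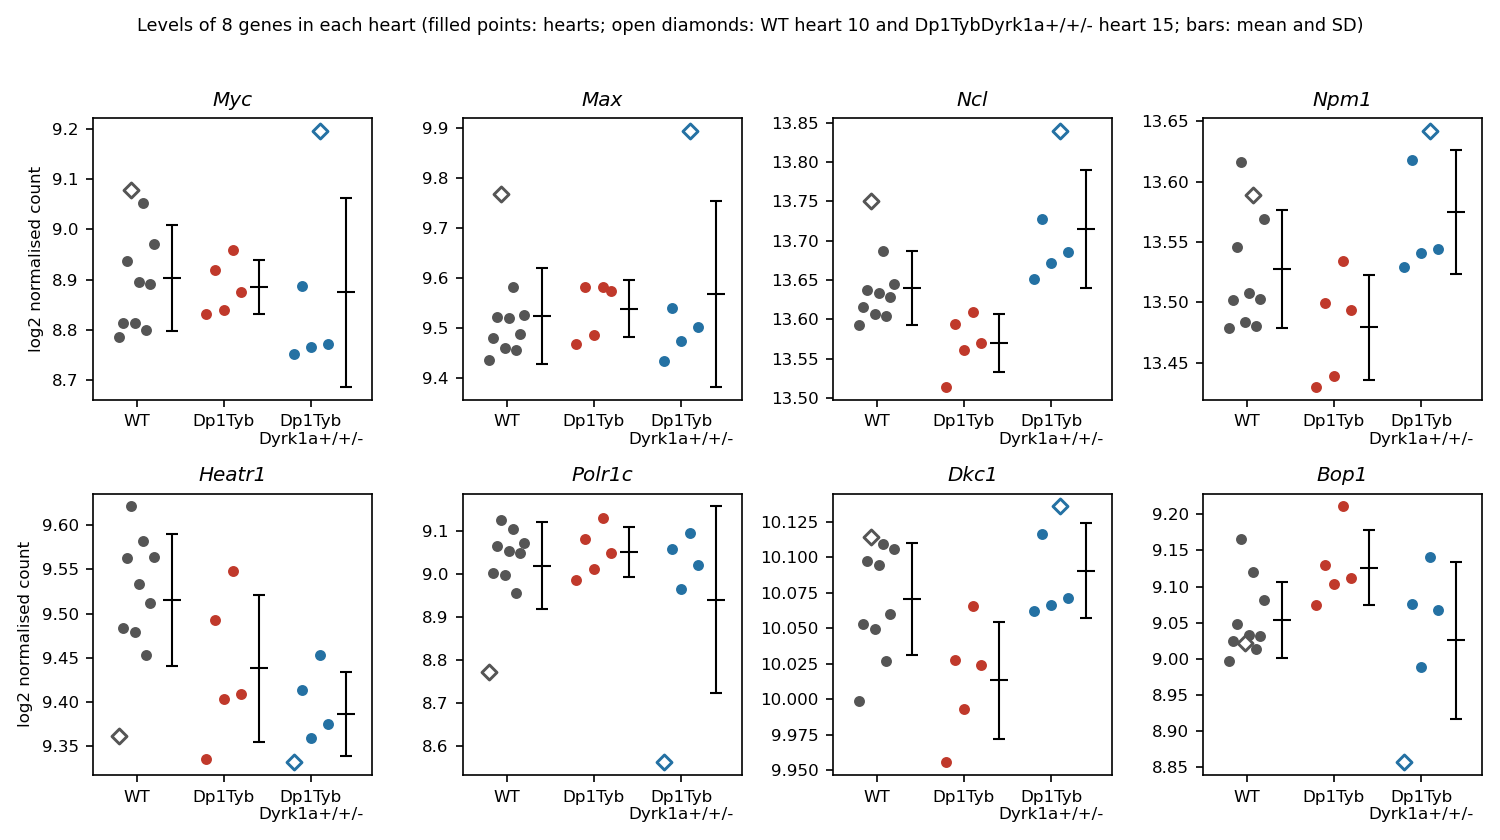
Log2 normalised count of 8 genes in each heart by genotype, with the mean and SD of each group beside the points. Open diamonds are WT heart 10 and Dp1TybDyrk1a+/+/- heart 15, which are the highest of their groups for Max and the lowest for Polr1c, while for Ncl the Dp1Tyb and Dp1TybDyrk1a+/+/- hearts do not overlap with or without heart 15.

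Because Myc and Max bind CACGTG, the promoters of the members were searched for it. The RefSeq promoter table of GRCm38.p6 holds 250 bases before to 50 after the start of a gene, and 38 of the 43 members were matched in it by symbol. A gene can have several windows, and these 38 genes have 47. The sequence CACGTG, which reads the same on both strands, was present in any window of 10 of the 38 genes (26.3%). Over all gene symbols with a window it was present in 2187 of 27025 (8.09%). Those symbols were not limited to the genes tested in these hearts, as the members are, so the shares come from unlike sets. The 10 genes were Max, Rrn3, Mybbp1a, Pes1, Utp4, Utp20, Wdr43, Tsr1, Ltv1 and Nop2, and Rrn3 held 2 matches. In the first listed window of each gene, the start was also the outer end of the RefSeq gene span for 25 of the 38 genes. It lay inside that span for 13, among them Max, by 75 bases, and Wdr43, by 37. Starts of further windows were not checked. Of the 11 matches 4 began before the start of their own window and 7 after it. The match of Max began 3 bases before the start of its window. Whether that is the window checked against the gene span was not tested. Nop2 and Rrn3, with matches upstream of the gene span, are shown, and Ncl because it is the member farthest from 0 between the mutant genotypes and has no match. Each stretch holds 250 bases before the start and the first 10 after it, 5′ to 3′ along the strand of the gene, with CACGTG in capitals. They lie at chr6:125131633-125131892 on the plus strand (Nop2), chr16:13780449-13780708 on the plus strand (Rrn3) and chr1:86359446-86359705 on the minus strand (Ncl).
Nop2: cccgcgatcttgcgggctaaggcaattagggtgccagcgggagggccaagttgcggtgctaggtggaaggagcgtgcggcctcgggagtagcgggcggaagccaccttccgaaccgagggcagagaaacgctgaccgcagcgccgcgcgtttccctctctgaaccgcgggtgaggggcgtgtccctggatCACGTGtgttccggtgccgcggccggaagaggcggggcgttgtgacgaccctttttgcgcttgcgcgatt
Rrn3: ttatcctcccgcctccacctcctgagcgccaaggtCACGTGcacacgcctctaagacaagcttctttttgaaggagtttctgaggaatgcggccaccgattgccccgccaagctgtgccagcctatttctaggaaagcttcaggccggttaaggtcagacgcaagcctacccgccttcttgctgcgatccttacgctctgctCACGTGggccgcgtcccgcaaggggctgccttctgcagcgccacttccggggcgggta
Ncl: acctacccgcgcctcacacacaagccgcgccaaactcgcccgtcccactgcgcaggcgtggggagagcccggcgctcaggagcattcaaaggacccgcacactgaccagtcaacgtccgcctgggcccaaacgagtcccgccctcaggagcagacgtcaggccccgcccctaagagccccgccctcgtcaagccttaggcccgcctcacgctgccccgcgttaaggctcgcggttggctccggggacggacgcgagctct
The match began 60 bases before the start in Nop2, and 215 and 48 before it in Rrn3. These are matches of letters and were not read as bound sites. The median log2 fold change of the 10 genes with a match was 0.00019 in Dp1Tyb versus WT, -0.0012 in Dp1TybDyrk1a+/+/- versus WT and -0.0013 in Dp1Tyb versus Dp1TybDyrk1a+/+/- hearts. For the 28 genes whose windows lack it the medians were -0.024, -0.023 and -0.0022, and none of these genes passed the test.

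RNA polymerase I and its factors had median log2 fold changes of -0.020 in Dp1Tyb and -0.049 in Dp1TybDyrk1a+/+/- hearts relative to WT, with 5 and then 6 of 6 members below 0. Without hearts 10 and 15 these medians were -0.027 and -0.020, with 5 of 6 below 0 in each. Polr1e, a subunit of the polymerase, was 8.61, 8.59, 8.58, 8.56 and 8.60 in Dp1Tyb hearts, where the WT hearts ran from 8.53 to 8.78 with a median of 8.66. All 5 Dp1Tyb values were below the WT median and inside the WT range, and the log2 fold change of -0.080 did not pass the test (adjusted p = 0.303, limma). Polr1c, a subunit shared with RNA polymerase III, was 9.13, 9.05, 9.08, 8.99 and 9.01 in Dp1Tyb and 8.97, 9.02, 8.56, 9.10 and 9.06 in Dp1TybDyrk1a+/+/- hearts, with WT hearts from 8.77 to 9.13. The lowest values in WT and Dp1TybDyrk1a+/+/- were hearts 10 and 15. Its difference between Dp1Tyb and Dp1TybDyrk1a+/+/- hearts was 0.11 with heart 15 and 0.016 without both hearts. Polr1b, the second-largest subunit, had a log2 fold change of -0.10 in Dp1TybDyrk1a+/+/- versus WT hearts (adjusted p = 0.453, limma), and -0.066 without hearts 10 and 15. Ubtf, which keeps ribosomal DNA open for the polymerase, had -0.066 (adjusted p = 0.493), with heart 9 at 11.10 and the other Dp1TybDyrk1a+/+/- hearts at 11.29 to 11.35 against 11.30 to 11.39 in WT. Without heart 9 it was -0.022. Polr1a, the largest subunit, and Rrn3, the factor that recruits the polymerase to its promoter, stayed between -0.026 and -0.0029 in all comparisons.

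The box C/D snoRNP proteins, which carry out methylation of ribosomal RNA, were each below 0 in Dp1Tyb versus WT, with a median log2 fold change of -0.054. Fbl, the methyltransferase, was 10.31, 10.30, 10.27, 10.35 and 10.18 in Dp1Tyb hearts, and WT hearts ran from 10.29 to 10.40 with a median of 10.34. Heart 12 was the lowest of all 20 and heart 7 alone was above the WT median, with a log2 fold change of -0.055 (adjusted p = 0.319, limma) and -0.030 without heart 12. Without that heart the median of the 3 proteins was also -0.030. Nop58, a scaffold protein of these particles, was 11.10, 11.05, 11.08, 11.16 and 11.03 in Dp1Tyb and 11.14, 11.13, 11.25, 11.23 and 11.10 in Dp1TybDyrk1a+/+/- hearts. These groups overlapped, and the difference between them was -0.086 (adjusted p = 0.175) and -0.066 without hearts 10 and 15. Nop56, the other scaffold protein, had -0.054 in Dp1Tyb versus WT (adjusted p = 0.391).

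The box H/ACA snoRNP proteins belong to particles that carry out pseudouridylation. All 3 were below 0 in Dp1Tyb relative to both WT and Dp1TybDyrk1a+/+/- hearts, with medians of -0.053 and -0.077. Dkc1, the pseudouridine synthase, was 9.96, 10.02, 10.07, 10.03 and 9.99 in Dp1Tyb and 10.06, 10.12, 10.14, 10.07 and 10.07 in Dp1TybDyrk1a+/+/- hearts. WT hearts ran from 9.998 to 10.11, so that 2 Dp1Tyb hearts were below every WT heart and 1 overlapped the Dp1TybDyrk1a+/+/- hearts. The log2 fold change of Dkc1 was -0.058 in Dp1Tyb versus WT (adjusted p = 0.217, limma) and -0.077 in Dp1Tyb versus Dp1TybDyrk1a+/+/- (adjusted p = 0.133), and -0.053 and -0.066 without the 2 hearts. Gar1, a structural protein of the particle, had the widest spread of any member in Dp1Tyb hearts (SD 0.119, n = 5), with 8.10 in heart 12 and 8.32 to 8.41 in the others. Without heart 12 the log2 fold change of Gar1 in Dp1Tyb versus WT went from -0.053 to -0.0020. The median of the 3 proteins was then -0.0045 against WT and -0.035 against Dp1TybDyrk1a+/+/-, where 2 of 3 were below 0. Nhp2, another structural protein, had log2 fold changes of -0.018, -0.0083 and -0.0095, and of -0.020, 0.020 and -0.039 without hearts 10 and 15.

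Among the nucleolar regulators, Ncl was the only member whose hearts did not overlap between 2 genotypes. Ncl (nucleolin, ENSMUSG00000026234, chromosome 1, 86344719 to 86359455) binds ribosomal DNA and the nascent precursor RNA. Its log2 normalised count was 13.61, 13.59, 13.57, 13.56 and 13.51 in Dp1Tyb hearts and 13.69, 13.67, 13.84, 13.73 and 13.65 in Dp1TybDyrk1a+/+/- hearts, while WT hearts ran from 13.59 to 13.75 with a median of 13.63. Every Dp1TybDyrk1a+/+/- heart was thus above every Dp1Tyb heart, and the WT hearts overlapped both. Of all tested genes 5.65% did not overlap in this comparison, against 1 of 43 members, and no member did so in either comparison with WT, where 2.63% and 0.64% of all tested genes did. The difference was -0.15 ± 0.036 (SE, n = 5 and 5), with an adjusted p of 0.0516 in limma and an exact permutation p of 0.00794, the smallest that 5 against 5 hearts allow. Relative to WT it was -0.071 in Dp1Tyb (adjusted p = 0.275, exact permutation p = 0.00466) and 0.075 in Dp1TybDyrk1a+/+/- hearts (adjusted p = 0.451, exact permutation p = 0.0440). The adjusted p lay so close to the threshold that its side changed with the processing, from 0.00866 with weights per heart to 0.202 after quantile normalisation. Without hearts 10 and 15 the difference was -0.11, the groups still did not overlap, and the adjusted p was 0.0137. Within lanes 3, 6 and 7 it was -0.087, -0.10 and -0.23, and with lane as a covariate it was -0.15 with an adjusted p of 0.114. The mutant genotypes were bred in separate crosses, so cross and genotype cannot be told apart in this comparison.

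Markers of dividing cells moved in the same comparison. Of 12 such markers, 12 were below 0 in Dp1Tyb relative to WT and to Dp1TybDyrk1a+/+/- hearts, and 2 passed the test against Dp1TybDyrk1a+/+/-, Ccna2 at -0.18 and Pcna at -0.13. Against WT 3 passed, Top2a at -0.14, Ccna2 at -0.16 and Pcna at -0.093, and none did in Dp1TybDyrk1a+/+/- versus WT. Over all tested genes 1.16% passed between the mutant genotypes and 3.08% between Dp1Tyb and WT. Between the mutant genotypes 4 of these markers did not overlap, Mki67, Top2a, Ccna2 and Pcna (5.65% of all tested genes). Between Dp1Tyb and WT 3 did not, Mki67, Ccna2 and Rrm2 (2.63% of all tested genes). The summed normalised count of the 12 markers was 40996 to 43564 in Dp1Tyb, 44860 to 48484 in WT and 44807 to 49050 in Dp1TybDyrk1a+/+/- hearts. The 9 cardiomyocyte markers summed to 421794 to 471373, 414737 to 523114 and 452151 to 489817 in the same order, with none of them at 0 and none past the test. Between Dp1Tyb and Dp1TybDyrk1a+/+/- hearts 7 of the 9 were below 0, with a median of -0.074. Tnnt2, Myl2 and Tnni3 did not overlap in that comparison, where 5.65% of all tested genes did not. The 6 markers of fibroblasts and cushion mesenchyme were all above 0 there, with a median of 0.14, and none passed the test. They summed to 121568 to 142669 in Dp1Tyb, 96515 to 140780 in WT and 100311 to 143628 in Dp1TybDyrk1a+/+/- hearts. The highest Dp1TybDyrk1a+/+/- sum was heart 15, and without it that group ran from 100311 to 126504. The part of these cell markers in the Ncl result was not tested. In whole hearts, fewer cells of a type and less RNA per cell cannot be told apart.

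Npm1, nucleophosmin, a chaperone of the granular nucleolus with processed pseudogenes that can share its reads, varied with Ncl. It was 13.43 to 13.53 in Dp1Tyb hearts, lowest in hearts 7 and 12, and 13.54, 13.54, 13.64, 13.62 and 13.53 in Dp1TybDyrk1a+/+/- hearts, and WT hearts ran from 13.48 to 13.62. The mutant groups overlapped at 1 Dp1Tyb heart, and their difference was -0.096 (adjusted p = 0.144, limma) and -0.079 without hearts 10 and 15. Nolc1, a chaperone of snoRNPs, had a difference of -0.059 between the mutant groups (adjusted p = 0.522), which was -0.0031 without hearts 10 and 15, with heart 15 the highest at 10.50 and the other hearts of that genotype at 10.16 to 10.30. Gnl3, a nucleolar GTPase, was at -0.038 in Dp1Tyb versus WT. Mybbp1a, a Myb-binding nucleolar protein, was the highest of the regulators there at 0.021 (adjusted p = 0.771), with Dp1Tyb hearts from 11.48 to 11.59 inside the WT range of 11.43 to 11.60.

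The PeBoW complex of Pes1, Bop1 and Wdr12 is needed for maturation of the large-subunit RNAs. Bop1 was 9.13, 9.07, 9.11, 9.21 and 9.10 in Dp1Tyb hearts, above the WT median of 9.03 in all 5, and WT hearts ran from 8.997 to 9.17. It was 8.99, 9.14, 8.86, 9.07 and 9.08 in Dp1TybDyrk1a+/+/- hearts, where heart 15 was the lowest of all. The log2 fold change of Bop1 was 0.073 in Dp1Tyb versus WT (adjusted p = 0.364, limma) and 0.10 in Dp1Tyb versus Dp1TybDyrk1a+/+/- (adjusted p = 0.216), the latter falling to 0.059 without hearts 10 and 15. Pes1 was among the steadiest genes, with an SD of 0.013 over the Dp1Tyb hearts and values of 10.14 to 10.17 there against 10.14 to 10.25 in WT. Its 3 log2 fold changes were -0.025, 0.00050 and -0.025, and those of Wdr12 were 0.011, -0.012 and 0.023. Without hearts 10 and 15 those of Wdr12 were 0.0034, 0.021 and -0.018.

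The small-subunit processome assembles on the precursor RNA and makes its first cuts. Its 10 members had medians of -0.019 in Dp1Tyb versus WT, -0.013 in Dp1TybDyrk1a+/+/- versus WT and 0.0081 in Dp1Tyb versus Dp1TybDyrk1a+/+/- hearts, and of -0.023, 0.00036 and -0.0098 without hearts 10 and 15. Heatr1, a large scaffold subunit also needed for transcription by RNA polymerase I, was the lowest of them in both comparisons with WT. WT hearts ran from 9.36, which was heart 10, to 9.62 with a median of 9.52. Heatr1 was 9.41, 9.34, 9.49, 9.55 and 9.40 in Dp1Tyb and 9.36, 9.38, 9.33, 9.45 and 9.41 in Dp1TybDyrk1a+/+/- hearts. All Dp1TybDyrk1a+/+/- hearts were below the WT median and overlapped WT through heart 10 alone. The log2 fold change was -0.077 in Dp1Tyb versus WT (adjusted p = 0.335, limma) and -0.13 ± 0.038 (SE) in Dp1TybDyrk1a+/+/- versus WT (adjusted p = 0.193, exact permutation p = 0.00533). Without WT heart 10 the latter was -0.15 and passed the test with an adjusted p of 0.0375. Without hearts 10 and 15 it was -0.13, with an adjusted p of 0.0683 (limma). The groups then did not overlap but were nearly tied, the highest Dp1TybDyrk1a+/+/- heart at 9.45305 and the lowest WT heart at 9.45308. Within lanes 3, 6 and 7 the difference of Dp1TybDyrk1a+/+/- from WT hearts was -0.19, -0.12 and -0.082.

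The highest processome member in Dp1Tyb versus WT was Utp4, at 0.012, with Dp1Tyb hearts from 9.45 to 9.52 and WT hearts from 9.39 to 9.54. Bms1, a GTPase, and Nop14 had differences of -0.076 and -0.10 between Dp1Tyb and Dp1TybDyrk1a+/+/- hearts, and neither passed the test (adjusted p = 0.236 and 0.193, limma). Heart 15 was the highest heart of its genotype for both, at 10.54 and 9.60, and without hearts 10 and 15 the differences were -0.046 and -0.065. The other 6 members, Wdr43, Wdr75, Utp15, Utp20, Rrp9 and Noc4l, ran from -0.034 to 0.0047 in Dp1Tyb versus WT and from -0.029 to 0.026 in Dp1TybDyrk1a+/+/- versus WT.

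Among the late 40S factors, which act on the small-subunit precursor up to its export and final cut, Tsr1 was 10.06, 10.02, 10.08, 10.06 and 10.02 in Dp1Tyb and 10.01, 10.10, 9.72, 10.12 and 9.95 in Dp1TybDyrk1a+/+/- hearts, with WT hearts from 9.89 to 10.11. Its log2 fold change was 0.035 in Dp1Tyb versus WT (adjusted p = 0.796, limma) and 0.069 in Dp1Tyb versus Dp1TybDyrk1a+/+/-, which was 0.0028 without hearts 10 and 15, the low Dp1TybDyrk1a+/+/- value being heart 15. Ltv1, an assembly factor removed late, was 9.63, 9.62, 9.67, 9.69 and 9.55 in Dp1Tyb and 9.67, 9.70, 9.83, 9.75 and 9.65 in Dp1TybDyrk1a+/+/- hearts, and WT hearts ran from 9.59 to 9.90. Its log2 fold change was -0.022 in Dp1Tyb versus WT and -0.088 in Dp1Tyb versus Dp1TybDyrk1a+/+/- (adjusted p = 0.865 and 0.344), the latter -0.060 without hearts 10 and 15. Nob1, the endonuclease that makes the final cut of 18S RNA, had -0.074 in Dp1TybDyrk1a+/+/- versus WT (adjusted p = 0.475), and Rrp12, an export factor, had -0.086 (adjusted p = 0.572), which were -0.070 and -0.075 without hearts 10 and 15.

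The 7 genes of 60S assembly had medians of 0.00051, -0.027 and 0.019, and of 0.0013, -0.021 and -0.0082 without hearts 10 and 15. Noc3l, a factor of pre-60S particles, was 9.001, 8.94, 8.94, 9.02 and 8.86 in Dp1Tyb hearts, and WT hearts ran from 8.97 to 9.16 with a median of 9.02. Of the 5 Dp1Tyb hearts 3 were below every WT heart, and the log2 fold change was -0.077 (adjusted p = 0.287, limma) and -0.053 without heart 12. It was -0.025 in Dp1TybDyrk1a+/+/- versus WT hearts, and -0.047 without hearts 10 and 15. Nop2, a methyltransferase of the large-subunit RNA, had the highest value of this group in Dp1Tyb versus WT, 0.014, with 9.85 in heart 7 and 9.61 to 9.69 in the other Dp1Tyb hearts against 9.61 to 9.74 in WT. Noc2l, Nop16, Ppan, Rrp1b and Wdr74 ran from -0.037 to 0.0046 in Dp1Tyb versus WT and from -0.048 to 0.026 in Dp1TybDyrk1a+/+/- versus WT.

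Other genes of the pathway, 139 by a separate list of which 137 were tested, gave 1 call in Dp1Tyb versus WT hearts and 0 in each of the other comparisons (limma, adjusted p under 0.05). At an unadjusted p under 0.05 there were 8, 9 and 23 (5.84%, 6.57% and 16.8%, against the 15.6%, 9.64% and 18.5% of all tested genes given above). The call was Mxd4, a Max partner that opposes Myc at E-boxes. Its log2 normalised count was 10.44, 10.43, 10.40, 10.33 and 10.38 in Dp1Tyb hearts, 10.48, 10.53, 10.36, 10.42 and 10.47 in Dp1TybDyrk1a+/+/- hearts and 10.35 to 10.65 with a median of 10.55 in WT. All Dp1Tyb hearts were below the WT median and 4 of 5 lay inside the WT range. Mxd4 fell by 0.14 on the log2 scale in Dp1Tyb versus WT hearts (adjusted p = 0.0481), and the difference was -0.15 without hearts 10 and 15 (adjusted p = 0.0108). The call was lost with no filter on low values (adjusted p = 0.0917) and after quantile normalisation (adjusted p = 0.0807). It was also lost without Dp1Tyb heart 7 (-0.12, adjusted p = 0.142). Of the fits with 1 heart left out, only those with the lowest and highest value of Mxd4 were read, so others may lose it too. In Dp1TybDyrk1a+/+/- versus WT hearts Mxd4 was at -0.080 (adjusted p = 0.500), and its difference between the mutant genotypes was -0.056 (adjusted p = 0.489).

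The other Myc family genes on that list were not called. Mycn had log2 fold changes of -0.014, -0.070 and 0.057, and Mycl had 0.019, -0.11 and 0.13. The hearts of 5 of the 137 genes did not overlap between Dp1Tyb and Dp1TybDyrk1a+/+/-, namely Krr1, Aatf, Ddx10, Nsa2 and Ddx54, against the 5.65% of all tested genes. Krr1, a small-subunit processome factor, had the smallest adjusted p of the list there, 0.0751 at -0.11 (limma). No gene of the further RNA polymerase I, small-subunit, large-subunit or snoRNP and exosome lists, or of the list of Myc-responsive genes outside the nucleolus, passed the test in any comparison.

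Genes whose products work together were compared over the 10 WT hearts in 11 pairs. Myc and Max varied together over the hearts, with a Pearson r of 0.785 (permutation p = 0.00192, adjusted over 11 pairs 0.0184) and a Spearman rho of 0.855 (permutation p = 0.00324, adjusted 0.0178). Leaving out the 2 hearts farthest from the median of Myc gave r = 0.843, and leaving out heart 10 gave r = 0.728. Ncl and Npm1 had r = 0.820 (permutation p = 0.00334, adjusted 0.0184) and rho = 0.867 (permutation p = 0.00237, adjusted 0.0178), with r = 0.766 without the 2 farthest hearts and r = 0.906 without heart 10. For the other 9 pairs, within the box C/D, box H/ACA and PeBoW groups, the adjusted permutation p was at least 0.608 for r and 0.162 for rho. Those values hold over all 10 WT hearts. Without heart 10, r went from -0.128 to 0.841 for Nop58 and Fbl and from 0.17 to 0.758 for Pes1 and Wdr12. For Bop1 and Pes1 it went from 0.284 to 0.657, and the remaining pairs ran from -0.323 to 0.570. No pair was tested without heart 10, so these pairs cannot be ranked against Myc and Max. Lanes held at most 4 WT hearts, too few for a correlation within a lane.

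Over the 10 hearts with the duplication, with the mean of each genotype removed, r was 0.919 for Myc and Max, and 0.418 over the 9 left without heart 15. For Ncl and Npm1 it was 0.880 and 0.909, so that the first relation was weaker without heart 15 and the second was not. These values are a description, since the hearts share 1 normalisation.

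**Figure D3:**
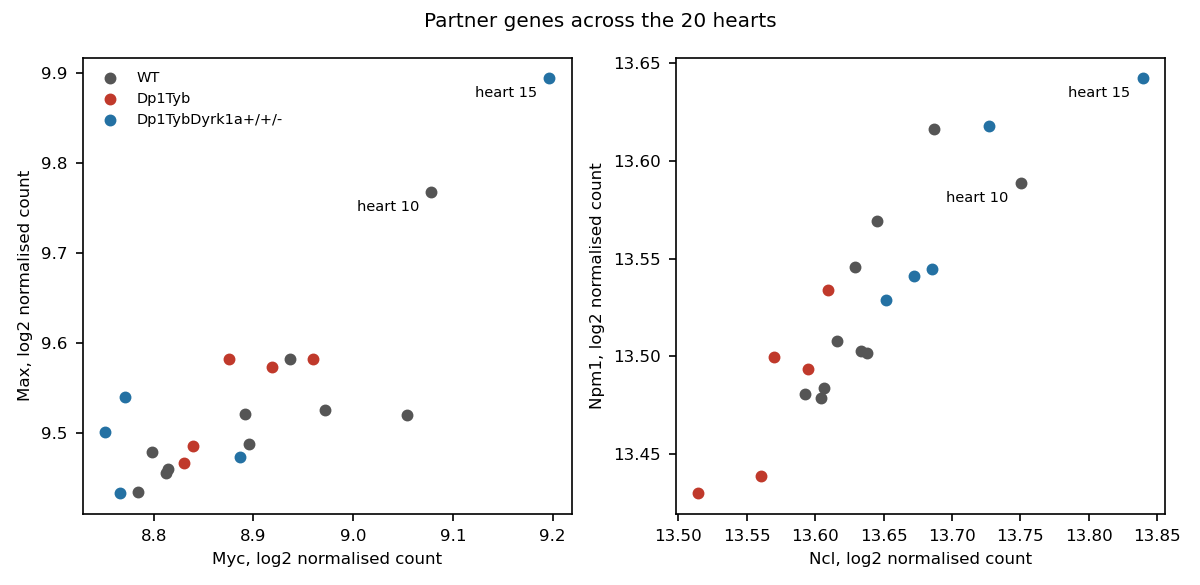
Log2 normalised count of Max against Myc (left) and of Npm1 against Ncl (right), 1 point per heart, coloured by genotype. WT heart 10 and Dp1TybDyrk1a+/+/- heart 15 lie apart at the top right of the left panel, while in the right panel Dp1Tyb hearts lie at the lower left and Dp1TybDyrk1a+/+/- hearts further up the same line of points.

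The program as a whole varied from heart to heart, and the ranges of the 3 genotypes overlapped. The mean over the 43 genes, relative to the WT mean, ran from -0.034 to 0.043 on the log2 scale in WT hearts, from -0.054 to 0.026 in Dp1Tyb and from -0.036 to 0.020 in Dp1TybDyrk1a+/+/- hearts. In WT heart 19, 37 of 43 genes were above the WT mean, and in WT hearts 1 and 2 there were 7. The Dp1Tyb hearts 3, 4, 6, 7 and 12 had 12, 8, 19, 30 and 9 genes above it, and the Dp1TybDyrk1a+/+/- hearts 9, 14, 15, 17 and 18 had 11, 20, 18, 30 and 13. The median SD of a member was 0.053 in WT, 0.044 in Dp1Tyb and 0.069 in Dp1TybDyrk1a+/+/- hearts, next to 0.054, 0.044 and 0.069 for all tested genes. Myc had the widest spread of the members in WT (SD 0.106, n = 10) and Polr1c in Dp1TybDyrk1a+/+/- hearts (SD 0.217, n = 5).

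The role groups did not move as 1 block in heart 15. Relative to the median heart, Myc and Max were 0.35 higher there and the nucleolar regulators 0.10 higher, while RNA polymerase I and its factors were at -0.15, the PeBoW complex at -0.14 and the late 40S factors at -0.12. In WT heart 10 Myc and Max were 0.23 higher and RNA polymerase I and its factors were at -0.064.

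**Figure D4:**
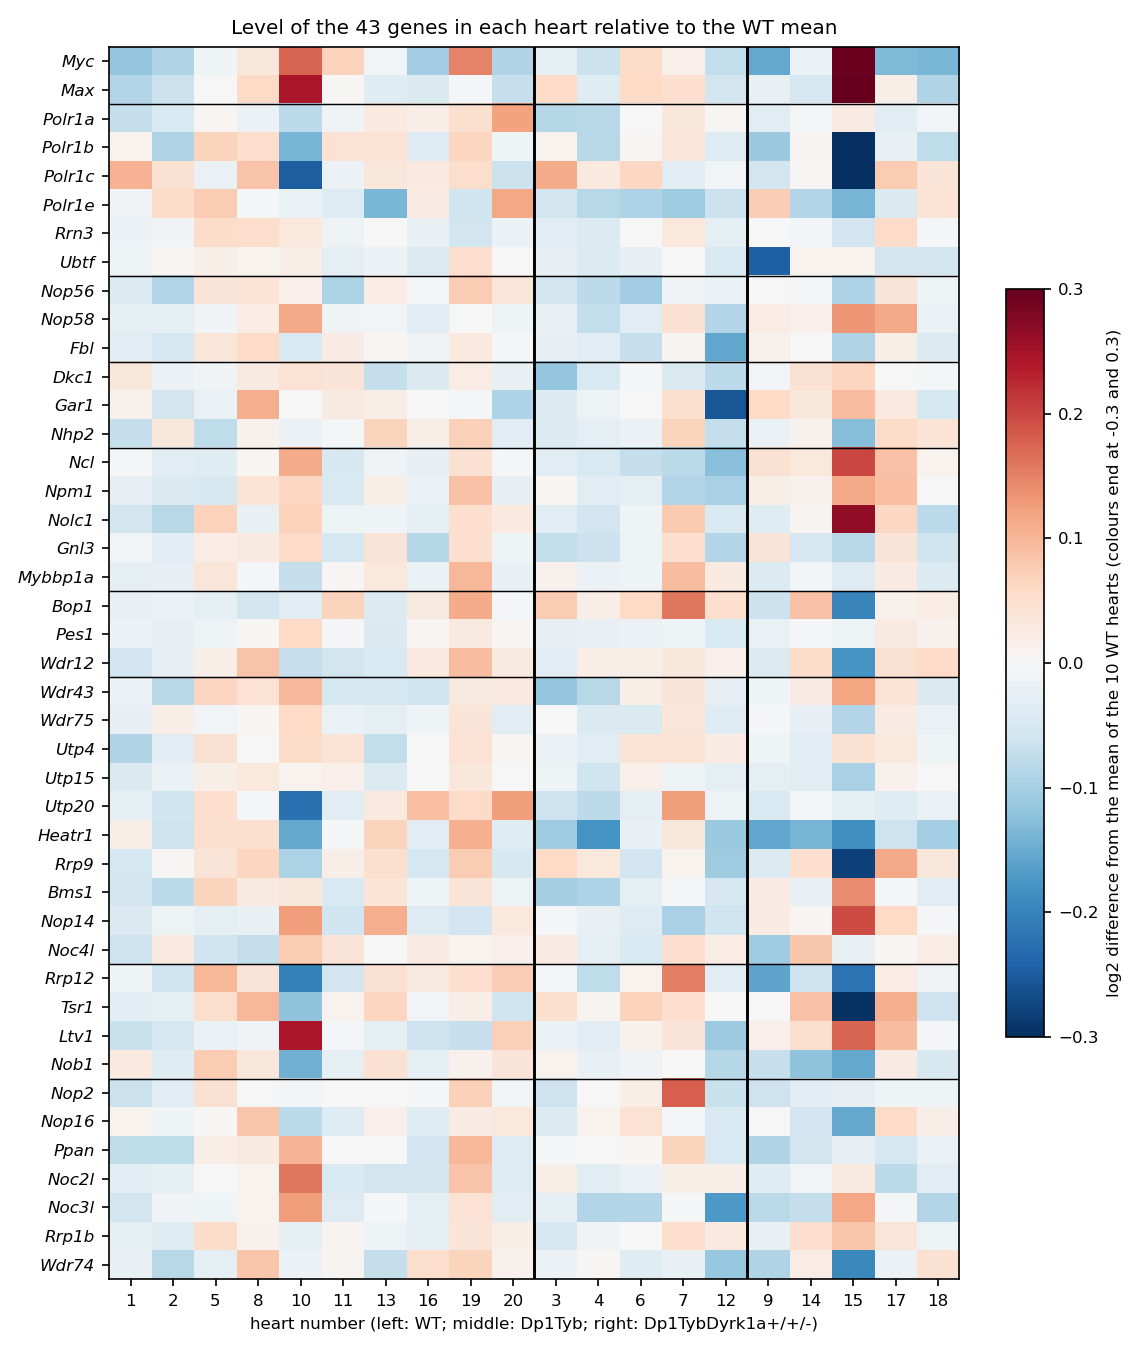
Level of each of the 43 genes (lines, grouped by role) in each heart (columns, grouped by genotype) as the log2 difference from the mean of the 10 WT hearts, with colours ending at -0.3 and 0.3. WT heart 10 and Dp1TybDyrk1a+/+/- heart 15 are red for Myc and Max and blue for Polr1b and Polr1c, and WT heart 19 and Dp1Tyb heart 7 are mostly red.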

How the data were processed

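RNA of 20 hearts was sequenced as mRNA libraries. The authors deposited 1 table of log2 normalised counts, scaled over all 20 hearts, and the log transformation is not given in the sources used here. Per the submitters' processing notes the tools were Trimmomatic 0.36, STAR 2.5.2a, RSEM 1.2.31 and DESeq2, with build GRCm38. There were 0 columns without a sample. Without read totals the depth of the libraries is unknown, and the heart-to-heart spread sets the precision. Fold changes of weakly expressed genes may be understated on this scale, and perhaps those of strongly expressed genes too. Dyrk1a, which is strongly expressed, read with an extra copy as a log2 fold change of 0.32 in Dp1Tyb versus WT hearts. Such understatement was not tested.

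Genes were named by GENCODE M39 and placed by RefSeq GRCm38.p6. The authors tested with DESeq2, which needs counts. In its place limma 3.58.1 in R 4.3.3 (lmFit and trended eBayes on all hearts at once, with a mean for each genotype) was fitted on the log2 values of 15304 genes with a mean normalised count of at least 10, with Benjamini-Hochberg adjustment over them. Exact two-sided permutation tests of hearts and 100000 permutations for correlations used Python 3.11.15 and scipy 1.17.1. The fit was tested on simulated data. Genes given with full values are Myc, Max, members past the threshold, the highest and lowest member of each role in Dp1Tyb versus WT and pathway genes past the threshold. Npm1, Bms1, Nop14, Krr1, the other members and the markers given with values were added after their values were seen. Members and lists were chosen with earlier results of these data known. Each heart is a separate embryo.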

Additional observations from a re-analysis of the deposited data

Results flagged for a closer look

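Of 57 combinations of a named gene and a genotype, 6 held a heart whose gap to the nearest other heart was large for the range of its group (Dixon's test at 95%), and chance alone gives about 1 in 20. All 6 were WT heart 10 or Dp1TybDyrk1a+/+/- heart 15, the hearts that stand apart over all tested genes. Max was at 9.77 in heart 10, with the next WT heart at 9.58, and at 9.89 in heart 15, with the next heart of its genotype at 9.54. Polr1c was at 8.77 in heart 10, next to 8.96, and at 8.56 in heart 15, next to 8.97. In heart 10 Nop58 was at 11.23, next to 11.14, and Ltv1 at 9.90, next to 9.73.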

How the results depend on the processing

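The count of members called was 0 in Dp1Tyb versus WT under every alternative. In Dp1Tyb versus Dp1TybDyrk1a+/+/- it became 1 (Ncl) with a minimum count of 100, with each heart centred on its median, with weights per heart, without the trend and without hearts 10 and 15, the last chosen after seeing the data. Leaving out each heart in turn gave 0 to 1 members in that comparison (Ncl without WT heart 10 or Dp1TybDyrk1a+/+/- heart 14). It also gave 0 to 1 in Dp1TybDyrk1a+/+/- versus WT (Heatr1 without WT heart 10). Over all tested genes 404, 302 and 158 were called in those fits in that order. The adjusted p of Ncl (limma) ran from 0.00866 to 0.202 over the other filters, normalisations and fits. Myc, not called under any of them, changed sign. Its Dp1Tyb versus WT value was 0.013 with weights and 0.00044 without hearts 10 and 15, and -0.038 to 0.00044 over hearts left out. In Dp1TybDyrk1a+/+/- versus WT it was -0.15 within lane 6, 0.11 within lane 7 and -0.11 to 0.0014 over hearts left out. In Dp1Tyb versus Dp1TybDyrk1a+/+/- it was -0.0020 with median centring, -0.00079 after quantile normalisation, -0.0050 with lane as a covariate, 0.15 within lane 6 and -0.020 to 0.091 over hearts left out. The median over the members was -0.026 in that comparison within lane 7 and -0.020 to 0.0062 over hearts left out, and -0.031 to -0.0078 and -0.027 to -0.0036 in the comparisons with WT. Leaving out Dp1TybDyrk1a+/+/- heart 15, of lane 7, moved Myc most in that genotype versus WT and in the direct comparison, to -0.11 and 0.091. The cause of the changes listed here was not tested. No paired analysis was possible because each heart carries a number of its own. Depth is unknown, and the litters of the WT hearts are not in the labels, so litter and genotype cannot be told apart.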
